A study of Mus musculus with 12 samples.

Results

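The 7 genes described here encode subunits of the GABA-A receptor: the alpha subunits Gabra2, Gabra3, Gabra4 and Gabra5, the beta subunits Gabrb1 and Gabrb2, and the delta subunit Gabrd. They were taken by name from a table of 24079 genes, and all 7 were among the 17823 genes with enough reads to be tested. The table holds sequencing reads of ribosome-bound mRNA from mouse hippocampus, with 6 wild-type (WT) libraries, WT1 to WT6, and 6 Fmr1 knockout (Fmr1 KO) libraries, KO1 to KO6. The mice of both groups carried the Wfs1-CreERT2 and RiboTag alleles, were males of 2 to 6 months, and had received tamoxifen (100 mg/kg) on 3 days, 1 week before the hippocampus was taken. Only the KO group lacked Fmr1, the X-linked gene for the RNA-binding protein FMRP, whose silencing causes fragile X syndrome. Each library was 1 pool of 4 to 6 mice.

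In RiboTag mice, Cre recombinase, here active only after tamoxifen, switches the ribosomal protein Rpl22 to a form with an HA tag, so that ribosomes of Cre-expressing cells can be pulled down with their mRNA. Cre stood here under the promoter of Wfs1, a gene strongly expressed by CA1 pyramidal neurons, and the pulldown was made from whole hippocampus. The authors saw the HA tag in CA1 pyramidal cells and not in CA2 pyramidal cells, GABAergic cells, astrocytes or microglia. By qRT-PCR they found Gad1, Slc32a1, Gfap, Cnp and Aif1 lower in the pulldown than in the whole homogenate. RNA of other cells could still be carried along from whole hippocampus. In such bulk samples fewer cells of a type and less RNA per cell cannot be told apart.

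The GABA-A receptor is a pentameric chloride channel opened by GABA, the main inhibitory transmitter of the brain. Most receptors combine alpha and beta subunits with a gamma subunit, which anchors them at synapses through gephyrin, or with the delta subunit, which places them outside synapses where they carry tonic inhibition. The alpha subunit decides much of a receptor's location and drug response: alpha5 is abundant in hippocampal pyramidal neurons, and alpha4 often pairs with delta, above all in dentate granule cells.

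The members differ at residues known to set drug responses, and the coding sequence around those codons is shown because it separates members that are otherwise alike. Classical benzodiazepines need a histidine in the alpha subunit, which alpha4 replaces with arginine. In the 4 sequences below, read from the annotated transcripts of the GRCm38 (mm10) build, the codon for that residue is in capitals, and all 4 genes lie on the minus strand. Gabra2 is shown from exon 5 at chr5:71014481-71014531 with codon 129, Gabra3 from exon 5 at chrX:72501144-72501194 with codon 154, Gabra5 from exon 5 at chr7:57488867-57488917 with codon 136, and Gabra4 from exon 4 at chr5:71641128-71641178 with codon 135. Codons are counted from the start codon, so the signal peptide is included.
Gabra2: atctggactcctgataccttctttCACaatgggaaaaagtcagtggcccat
Gabra3: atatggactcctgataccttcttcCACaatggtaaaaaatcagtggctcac
Gabra5: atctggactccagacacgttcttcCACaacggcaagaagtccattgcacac
Gabra4: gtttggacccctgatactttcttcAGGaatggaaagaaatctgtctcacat

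The capitals read as a histidine codon in Gabra2, Gabra3 and Gabra5 and as an arginine codon in Gabra4. Over the 51 bases, Gabra2 and Gabra3 differed at 6 positions and Gabra5 and Gabra4, the least alike, at 17. The beta subunits carry the corresponding switch for the anaesthetic etomidate, which acts well on receptors with an asparagine in the second membrane-spanning segment of the beta subunit and poorly on those with a serine. Both beta genes lie on the plus strand, and the codon is again in capitals: codon 289 in exon 9 of Gabrb2 at chr11:42597549-42597599, and codon 290 in exon 8 of Gabrb1 at chr5:72121957-72122007.
Gabrb2: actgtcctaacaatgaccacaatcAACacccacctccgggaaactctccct
Gabrb1: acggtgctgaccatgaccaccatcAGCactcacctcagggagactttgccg

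Gabrb2 has the asparagine codon and Gabrb1 the serine codon, and the windows differed at 12 of 51 bases. These differences also bear on the counting: among the transcripts of the 19 GABA-A subunit genes, 1 of 171 pairs shared any stretch of 50 bases, the read length, and that pair was Gabrr1 and Gabrr2. No member shared such a stretch with another subunit gene. Gabra2 (chr5:70958392-71095849), Gabra4 (chr5:71569734-71658308) and Gabrb1 (chr5:71657921-72149572) stand in 1 cluster on chromosome 5. The transcript used for Gabra4 overlapped exon sequence of Gabrb1 on the opposite strand, and that used for Gabra5 overlapped Gm9962. The Gabrb1 transcript used here had no such overlap. Reads were counted by strand. Gabra5 (chr7:57407669-57591016), Gabrb2 (chr11:42419515-42632591), Gabra3 (chrX:72432676-72656919) and Gabrd (chr4:155384979-155398098) lie on other chromosomes, and no member shared an exon with another gene on its own strand.

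The libraries held 39400980 to 55745464 reads in WT and 43106629 to 65565479 in KO. Fmr1 had 1971 to 2608 reads in the WT libraries, 0 in 5 KO libraries and 1 in KO2. Wfs1, whose promoter drives Cre, ranged from 942 to 1434 CPM (counts per 1000000 reads of the library, with TMM scaling). Its KO mean was 1055 ± 103 CPM against 1272 ± 175 in WT (82.9% of WT, 95% interval 72.7 to 94.7%, log2 fold change -0.27, unadjusted p under 0.05, adjusted p = 0.410 in edgeR). Slc1a1, a marker of glutamatergic neurons that is also part of the CA1 score below, ranged from 199 to 252 CPM. Markers of other cells were present in every library, with Gad1 of interneurons at 46.5 to 97.6 CPM, Slc32a1 of interneurons at 9.75 to 27.3, Prox1 of dentate granule cells at 7.31 to 24.4, Gfap of astrocytes at 202 to 384, Mbp of oligodendrocytes at 468 to 792, Cldn5 of endothelium at 5.36 to 16.4 and Aif1 of microglia at 3.02 to 4.65. Scores over whole marker lists (mean log2 CPM) differed between genotypes for astrocytes (10 genes, KO minus WT 0.20, exact permutation p = 0.0433, two-sided) and for endothelial and mural cells (9 genes, 0.28, p = 0.0411). The CA1 score (8 genes) was 7.22 to 7.54 in WT and 7.05 to 7.41 in KO, a difference of -0.14 (exact permutation p = 0.0736). Adjusted over the 8 lists of cell markers, the lowest p was 0.173. WT4 had the highest interneuron, oligodendrocyte, and CA2 and CA3 scores of all libraries, and the lowest CA1 score of the WT libraries (7.22).

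Levels were compared between members as CPM per kb of transcript, since longer transcripts give more reads. On this scale Gabra5 and Gabrb2 stood far above the others, and Gabrb1 far below. Gabra5 had a WT mean of 51.2 ± 5.41 CPM per kb (SD, n = 6) and Gabrb2 of 44.7 ± 3.43. Their ranges overlapped, with Gabra5 the higher in 9 of 12 libraries, so this pair did not differ beyond its spread.

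Gabra3 (14.6 ± 0.931 CPM per kb in WT) and Gabra2 (14.0 ± 2.19) followed and could not be ordered, each being the higher in 6 of 12 libraries. Gabra4 came next with 11.3 ± 1.14 CPM per kb and lay below Gabra2 in all 12 libraries, although the ranges over libraries overlapped. Gabrd had 9.15 ± 1.38 CPM per kb and was below Gabra4 in 9 of 12 libraries. Gabrb1 had 0.901 ± 0.103 CPM per kb, below every other member in all libraries.

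The low place of Gabrb1 did not rest on its long annotated transcript (13737 bases) alone, since per kb of coding sequence it was again last, with 8.70 ± 0.991 CPM per kb against 13.0 ± 1.97 for Gabrd in WT. These 2 ranges overlapped per coding length, with Gabrd the higher in 11 of 12 libraries. Per coding length Gabrb2 (125 ± 9.62) passed Gabra5 (98.4 ± 10.4) in all 12 libraries, and Gabra2 (60.7 ± 9.47) passed Gabra3 (36.3 ± 2.31). The order within these pairs therefore depended on which length was used, and the length of the gene models behind the counts is not known here.

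The genotype comparison asked whether ribosome-bound mRNA of these subunits differs when FMRP is missing. None of the 7 members passed the threshold of 0.05 on adjusted p when edgeR's quasi-likelihood test was run over all genes, where 0.0224% of the genes tested did (4 genes). Gabra5 was 1 of 7 members with an unadjusted p under 0.05, and it was lower in KO. Of all genes tested, 7.96% stood at that level, 3.67% as lower and 4.29% as higher in KO. The values of WT and KO libraries overlapped for all 7, as for all but 0.623% of the genes tested. Of the log2 fold changes, 6 were below 0 and 1 above, with a median of -0.08, against 0.00 over all genes tested, of which 51.4% were above 0. DESeq2, which called 0.471% of all genes, and limma voom, which called 0.0224%, called none of the 7 either. The p-values measure the spread between pools of mice.

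**Figure D1:**
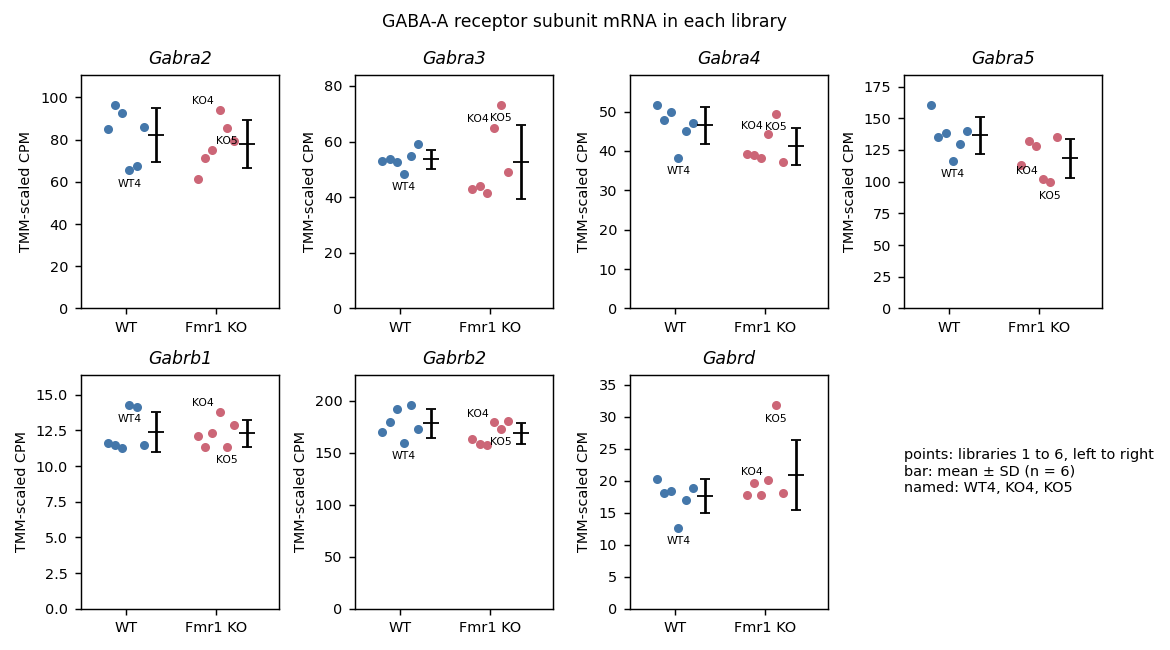
TMM-scaled CPM of each member in each library (points, libraries 1 to 6 from left to right) with the mean and SD of 6 libraries, WT in blue and Fmr1 KO in red. Every pair of groups overlaps; KO5 stands above the other KO libraries for Gabrd (31.8 CPM), and WT4 is the lowest WT library for 6 of 7 members.

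Among the alpha subunits, Gabra5, which forms the receptors behind much of the tonic inhibition of pyramidal neurons, had the highest level of the 4 alpha members and the smallest p of the 7. It had a lowest, median and highest value of 116, 137 and 160 CPM in WT and of 99.4, 121 and 135 CPM in KO. None of the 6 KO libraries reached the WT median, KO5 and KO4 (102 CPM) were the lowest, and the groups still overlapped, since WT4 lay below KO6. The mean was 137 ± 14.4 CPM in WT and 118 ± 15.6 in KO (SD, n = 6 each), or 86.6% of WT with a 95% interval of 76.1 to 98.5%. The log2 fold change was -0.21 (SE 0.09), with an unadjusted p under 0.05 and an adjusted p of 0.561 in edgeR. Its unadjusted p was above 0.05 when any 1 of WT1, WT6, KO1, KO4 and KO5 was left out.

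Gabra5 varied with the markers of pyramidal neurons across libraries, with those of CA1 and, in the opposite direction, those of CA2 and CA3. After the mean of each genotype was taken out, its log2 CPM and the CA1 score had r = 0.84 and rho = 0.78 over 12 libraries, and r = 0.75 without the 2 libraries farthest out on the score. With the CA2 and CA3 score (12 genes) it had r = -0.82 and rho = -0.80, and r = -0.71 without the 2 farthest libraries. KO4 and KO5, the lowest 2 libraries for Gabra5, had CA1 scores of 7.05 and 7.20, while WT1, the highest, had 7.54. The relation was not tight, since KO3 and WT4, with scores of 7.22 each, had 128 and 116 CPM of Gabra5, against 99.4 CPM in KO5. With the score as a covariate in edgeR, the log2 fold change of Gabra5 was -0.04 (adjusted p = 0.834). The same fit moved Gabra3 from -0.03 to -0.15 (adjusted p = 0.673) and Gabrb1 from -0.01 to -0.09 (adjusted p = 0.737), and the CA2 and CA3 score was not used as a covariate. The CA1 covariate was chosen after its relation with Gabra5 was seen, and Gabra5 is not on the marker list. The CA1 score was also lower in KO (-0.14), so a score chosen for following Gabra5 takes up part of its difference by design. CA1 content and a genotype effect on Gabra5 cannot be told apart here.

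**Figure D2:**
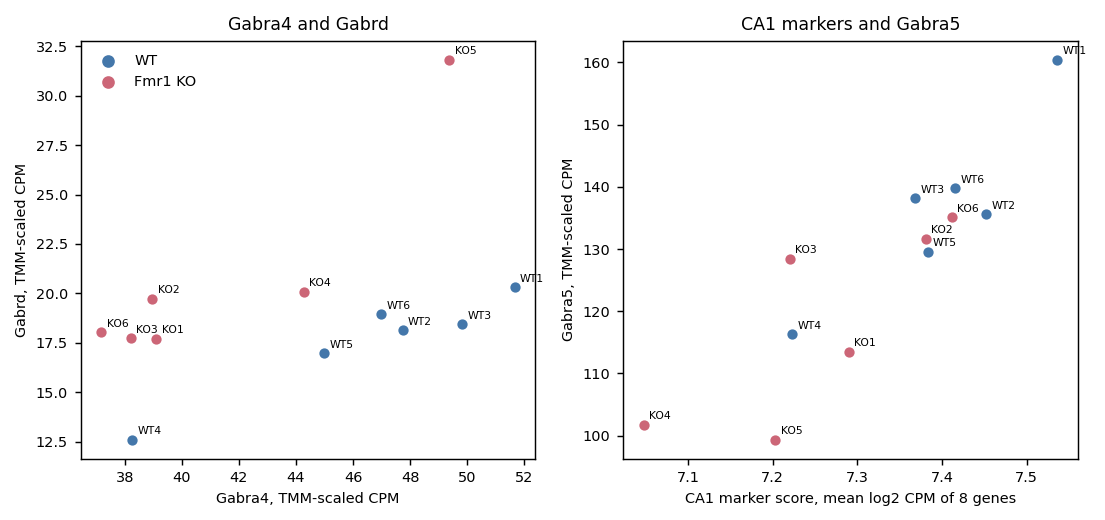
Left, Gabrd against Gabra4 (TMM-scaled CPM) and right, Gabra5 (TMM-scaled CPM) against the CA1 marker score (mean log2 CPM of 8 genes), with 1 point per library and the axes not starting at 0. Within each genotype the libraries highest for Gabra4 (WT1 and KO5) are also the highest for Gabrd, and KO4 and KO5 lie lowest for Gabra5, at CA1 scores of 7.05 and 7.20.

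Gabra4 encodes the alpha subunit that joins delta in extrasynaptic receptors. It had a lowest, median and highest value of 38.3, 47.4 and 51.7 CPM in WT and of 37.2, 39.0 and 49.4 CPM in KO. The groups overlapped through WT4, far below the other WT libraries, and through KO5. The other 5 KO libraries, up to 44.3 CPM in KO4, lay below every WT library but WT4. The KO mean was 88.4% of WT (95% interval 78.0 to 100.3%), a log2 fold change of -0.18 (SE 0.09, adjusted p = 0.636 in edgeR). Leaving out KO5 gave -0.24 (adjusted p = 0.524), and leaving out WT4 gave -0.23 (adjusted p = 0.430), both with an unadjusted p under 0.05. Leaving out WT1 gave -0.15 (adjusted p = 0.681). In edgeR the unadjusted p was above 0.05 with all libraries in. It was also above 0.05 with any 1 library left out other than WT4, KO4 or KO5.

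Gabra2, the alpha subunit of many synapses on the cell body and axon initial segment, ran from 65.4 over a median of 85.4 to 96.3 CPM in WT and from 61.4 over 77.3 to 94.2 CPM in KO. Its low WT libraries were WT4 and WT5 (67.5 CPM), and the KO values spread over nearly the whole WT range. The KO mean was 94.8% of WT (95% interval 80.9 to 111%), with a log2 fold change of -0.08 (SE 0.11, adjusted p = 0.934 in edgeR).

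Gabra3, an alpha subunit sparse in the hippocampus and abundant in cortex and monoaminergic nuclei, ran from 48.5 over 53.4 to 59.0 CPM in WT and from 41.6 over 46.6 to 73.1 CPM in KO. In KO it split the libraries: KO5 and KO4 (65.0 CPM) were above every WT library, 3 of the other 4 were below every WT library, and the SD was 13.2 CPM against 3.41 in WT. The means nearly cancelled, at 53.6 CPM in WT and 52.6 in KO (log2 fold change -0.03, SE 0.12, adjusted p = 0.985 in edgeR). Without KO5 the value was -0.14 (adjusted p = 0.902), and without any 1 of KO1, KO2, KO3 and WT6 it was above 0, so no direction can be given.

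Neither beta subunit differed between genotypes beyond the spread. Gabrb2, a widespread beta subunit of the brain, ran from 160 over 177 to 196 CPM in WT and from 158 over 168 to 181 in KO, and all KO values but the lowest 2 lay inside the WT range. Its KO mean was 94.6% of WT (95% interval 86.4 to 104%), a log2 fold change of -0.08 (SE 0.06, adjusted p = 0.821 in edgeR). Gabrb1, the beta subunit with the serine codon at the etomidate site, ran from 11.3 over 11.6 to 14.3 CPM in WT and from 11.3 over 12.2 to 13.8 in KO. WT4 and WT5 (14.1 CPM) were its highest libraries. The KO mean was 99.4% of WT (95% interval 86.8 to 114%), with a log2 fold change of -0.01 (SE 0.09, adjusted p = 0.994 in edgeR), and its sign turned under several alternatives.

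Gabrd was the only member with a fold change above 0, and that value fell most when KO5 or WT4 was left out. It ran from 12.6 over 18.3 to 20.3 CPM in WT and from 17.7 over 18.9 to 31.8 in KO. KO5 was far above the next KO library (KO4, 20.1 CPM) and WT4 far below the next WT library (17.0 CPM), while the other 10 libraries lay between 17.0 and 20.3 CPM. The KO mean was 119% of WT (95% interval 96.3 to 146%), a log2 fold change of 0.25 (SE 0.14, adjusted p = 0.724 in edgeR). Without KO5 it was 0.09 (adjusted p = 0.974), and without WT4 it was 0.17 (adjusted p = 0.847). Of the 11 dentate granule markers, 5 had fold changes above 0, and 2 (Plk5 and Stxbp6, both higher in KO) had an unadjusted p under 0.05 in edgeR. The dentate score of KO5 (4.75) and its summed dentate CPM (411) lay inside the WT ranges of 4.56 to 4.86 and 362 to 419.8 CPM, the sum being the highest of the KO libraries, next to 410.1 CPM. KO5 had the lowest Prox1 level (7.31 CPM) and the lowest Dsp level (18.5 CPM), while its C1ql2 level (21.6 CPM) lay inside the WT range. With the genotype means taken out, Gabrd and the dentate score had r = 0.11 over the libraries, and 0.03 without KO5. The part of dentate RNA in the Gabrd values was not tested.

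KO5 and KO4 stood together for several members, low for Gabra5 and high for Gabra3 and Gabra4. They also had the highest scores on a list of 6 markers of subicular and neocortical pyramidal neurons, at 4.89 and 4.82 (mean log2 CPM), against 4.38 to 4.80 in WT and 4.31 to 4.55 in the other 4 KO libraries. This list was written after these libraries had been seen to stand apart, and its part in the members' values was not tested.

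**Figure D3:**
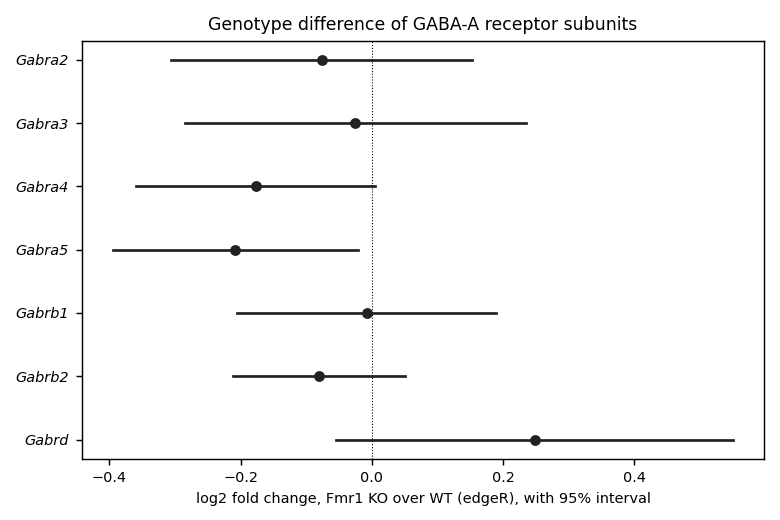
Log2 fold change of Fmr1 KO over WT from edgeR (points) with the 95% interval (lines) for the 7 members, and a dotted line at 0. The interval of Gabra5 alone among them lies wholly on 1 side of 0, and its adjusted p is 0.561.

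Other subunit genes were measured too. Of the 12 other GABA-A subunit genes listed, 10 were tested, since Gabrr1 and Gabrr3 had 13 and 4 reads in all, and none passed the threshold in either direction. Gabrg1, for a gamma subunit, had 7.87 ± 1.69 CPM in WT and 8.26 ± 1.85 in KO (log2 fold change 0.07). Gabrq, for the theta subunit, had 0.396 ± 0.219 CPM in WT and 0.924 ± 0.436 in KO, from 3 to 99 reads per library. This was a log2 fold change of 1.24 (SE 0.47), and it was the 1 gene of the 10 with an unadjusted p under 0.05 (adjusted p = 0.495 in edgeR). Gabra6, Gabre, Gabrp, Gabrr2 and Gabrg3 all stayed under 1 CPM in their group means, from 0.0415 CPM for Gabrp in WT to 0.630 for Gabrg3 in WT. The 10 genes were split evenly, 5 above 0 and 5 below, with a median log2 fold change of 0.02. Over all genes tested, 0.0224% passed the threshold, 7.96% had an unadjusted p under 0.05 and 51.4% lay above 0.

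Proteins that hold, move and modify the receptor were looked at next. Of 19 genes for the inhibitory postsynaptic scaffold and its adhesion molecules, 0 passed the threshold, 16 had fold changes below 0 and 3 above. The median log2 fold change was -0.10. Among all genes tested, 51.4% had fold changes above 0 and 7.96% had an unadjusted p under 0.05. Igsf9b, an adhesion molecule of inhibitory synapses, was the 1 gene with an unadjusted p under 0.05, at 2.33 ± 0.631 CPM in WT and 1.29 ± 0.456 in KO (-0.86, SE 0.25, adjusted p = 0.322 in edgeR). It had 42 to 133 reads per library. Nlgn3, a neuroligin of both excitatory and inhibitory synapses, had 67.2 ± 3.47 and 62.1 ± 1.40 CPM (-0.12, adjusted p = 0.630), and Insyn1, a partner of gephyrin and the dystrophin complex, had 83.2 ± 5.43 and 75.4 ± 6.73 CPM (-0.14, adjusted p = 0.633).

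Of 24 genes for trafficking and phosphorylation, 0 passed, 17 were below 0 and 7 above, with a median log2 fold change of -0.04. Here too the shares of all genes tested were 51.4% above 0 and 7.96% at an unadjusted p under 0.05. Prkca, a protein kinase C that phosphorylates receptor subunits, was the 1 gene with an unadjusted p under 0.05 and had 339 ± 25.9 CPM in WT and 300.1 ± 31.4 in KO (-0.17, adjusted p = 0.542 in edgeR). Trak1, an adaptor for kinesin transport, had 181 ± 9.93 and 166 ± 15.9 CPM (-0.12, adjusted p = 0.709). Prkcb, another protein kinase C, had 1320 ± 98.9 and 1211 ± 116 CPM (-0.12, adjusted p = 0.710).

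Genes for GABA synthesis, transport and breakdown gave 0 of 9 past the threshold and a median log2 fold change of 0.06. At an unadjusted p under 0.05, where 7.96% of all genes tested stood, there were 2, both GABA transporters found mainly outside neurons. Slc6a13 (GAT2), known from the meninges and vessels, had 9.98 ± 1.87 CPM in WT and 13.7 ± 4.19 in KO (0.45, adjusted p = 0.505 in edgeR). Slc6a11 (GAT3), of astrocytes, had 99.2 ± 8.32 and 115 ± 16.2 CPM (0.21, adjusted p = 0.549). Astrocyte and endothelial marker scores were higher in KO by 0.20 and 0.28, Slc6a11 is itself on the astrocyte list, and the part of these cells in the 2 values was not tested. Abat, which breaks GABA down, had 123 ± 9.30 and 132 ± 13.8 CPM (0.11, adjusted p = 0.790).

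Of 6 genes for the GABA-B receptor and its auxiliary subunits, 0 passed and the median log2 fold change was -0.08. The auxiliary subunits Kctd16 and Kctd8, both with an unadjusted p under 0.05 (as had 7.96% of all genes tested), lay on opposite sides of 0. Kctd16 had 6.26 ± 0.552 CPM in WT and 4.88 ± 0.591 in KO (-0.36, SE 0.11, adjusted p = 0.378 in edgeR), and Kctd8 had 1.17 ± 0.284 and 1.82 ± 0.556 CPM (0.64, adjusted p = 0.475). Kctd16 passed the threshold in 1 alternative, DESeq2 without KO5 (-0.43, adjusted p = 0.0392), chosen after the data were seen. Gabbr2, a core subunit of the receptor, had 99.5 ± 11.1 and 89.6 ± 8.77 CPM (-0.15, adjusted p = 0.697 in edgeR).

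Chloride transport sets the direction of current through the receptor. Of its 14 genes, 0 passed the threshold and none had an unadjusted p under 0.05, against 7.96% of all genes tested. Their median log2 fold change was -0.01. The smallest p belonged to Slc4a8, a bicarbonate transporter, with 78.4 ± 4.83 CPM in WT and 71.5 ± 5.21 in KO (-0.13, adjusted p = 0.634 in edgeR). Wnk2, a kinase that regulates chloride transporters, had 69.3 ± 4.50 and 63.9 ± 3.20 CPM (-0.12), and Slc12a7, a potassium-chloride cotransporter, had 7.76 ± 0.518 and 9.49 ± 2.75 CPM (0.29).

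The members did not all vary together from library to library. Log2 CPM values with the genotype means taken out were correlated over the 12 libraries, which share depth and cell makeup within a library, so these values are descriptions without a test. Of the 21 pairs, 12 had r above 0, from -0.60 for Gabrb1 and Gabrd to 0.93 for Gabra4 and Gabrd. Gabra4 and Gabrd were thus the most alike pair (rho 0.89), with r = 0.91 without KO5 and 0.84 without the 2 libraries farthest out. Both also ran against the oligodendrocyte score (r = -0.72 and -0.73) and the interneuron score (r = -0.63 and -0.62). Without the 2 libraries farthest out on each score, r was -0.46 and -0.52, then -0.275 and -0.40. With the dentate granule score Gabra4 and Gabrd had r = 0.28 and 0.11, and 0.44 and 0.22 without the 2 farthest libraries. Gabra2 and Gabra3 had r = -0.70 and -0.76 with the oligodendrocyte score. The part of cell makeup in these correlations was not tested. Among 13767 genes with a mean of at least 1 CPM, Gabrd was the 2nd most like Gabra4, and Gabra4 the 2nd most like Gabrd. Gabra3 had r = 0.74 with Gabrd and 0.73 with Gabra4, but 0.49 and 0.57 without KO5.

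The genes most like each member were ranked by r over the same 12 libraries. For Gabra5 they included Doc2b (0.97) and Drd5 (0.94). For Gabra4 they were Crybg3 (0.93), Gabrd and Tbr1 (0.90), and for Gabrd they were Kcnj4 (0.93), Gabra4 and Dclk3 (0.92). For Gabra3 they were Stx1a (0.98), Cckbr (0.97) and Camk2n1 (0.96), and for Gabra2 they were Zfp365 (0.94), Ranbp9 (0.92) and Capn7 (0.88). Gabrb2 was followed by Acsl4 (0.88), Lonrf2 (0.87) and Atp2b2 (0.87), and Gabrb1 by Ccdc66 (0.86), Inpp4b (0.83) and Pcdhga12 (0.83).

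Ratios within a library do not depend on scaling between libraries, so the alpha members were also expressed as shares of their summed CPM per kb of transcript. Gabra5 made up 56.1 ± 1.69% in WT and 54.1 ± 6.91% in KO (SD, n = 6). The WT libraries lay close together, from 54.3 to 59.1%, whereas KO5 had 44.4%, KO4 46.1% and the other 4 KO libraries values up to 59.4%. Without KO5 the KO mean was 56.0%.

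The share of Gabra3 was 16.1 ± 1.25% in WT and 17.5 ± 4.11% in KO, with 23.8% in KO5, and the KO mean without KO5 was 16.2%. Gabra2 held 15.3 ± 1.60% and 16.2 ± 1.96%, and Gabra4 12.4 ± 0.339% and 12.2 ± 1.41%. The means of all 4 shares differed between genotypes by less than the SD in KO, and the spread in KO exceeded that in WT for each of them. Of the 2 beta members, Gabrb2 made up 98.0% in WT and 97.9% in KO per kb of transcript, and 93.5 and 93.2% per kb of coding sequence.

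**Figure D4:**
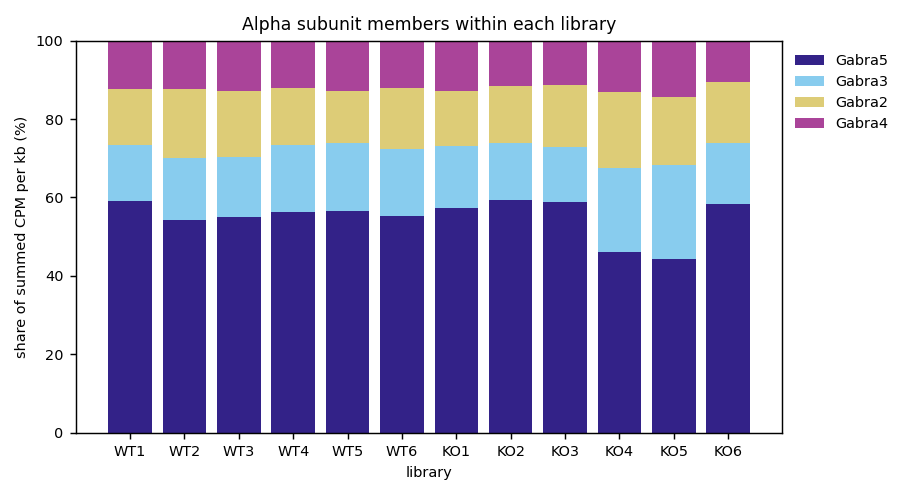
Share of each alpha subunit member in the summed CPM per kb of transcript of the 4 alpha members (percent, stacked to 100) in each of the 12 libraries. The Gabra5 share is 44.4% in KO5 and 46.1% in KO4, below the WT range of 54.3 to 59.1%.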

How the data were processed

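The authors sequenced ribosome-bound RNA from stranded libraries with single reads of 50 bases, aligned them with TopHat2 2.1.1 and Bowtie2 2.2.8 to mm10, dropped alignments with more than 3 mismatches, and counted reads per gene with HTSeq 0.6.1p1 by strand. They deposited counts without normalization, which were used as they stand. Genes with at least 15 reads summed over 12 libraries were tested with edgeR 4.0.16 (TMM, quasi-likelihood, no block) in R 4.3.3, with Benjamini-Hochberg adjustment over all genes. DESeq2 1.42.0, limma 3.58.1 voom, other scalings and filters, the replicate number as a block and each library left out were alternatives. The test was tried on simulated counts of this comparison over 17823 genes. In each of 3 runs, 200 genes with a mean of at least 1 CPM were changed by 2-fold. The test recovered 92% of them, and 5.29% of its calls were unchanged genes. Differences of the members' size (log2 fold changes from -0.21 to 0.25) are smaller than 2-fold, and their recovery was not simulated.

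The members and lists were chosen with earlier results of these data known. The text names the 7 members, the other subunit genes tested, the 3 genes with the smallest p in each partner list and any with an unadjusted p under 0.05, the 3 genes most like each member in pattern, Fmr1, and defining markers. The values of 4 genes that this rule names are not reported here. Levels are TMM-scaled CPM, and log2 CPM used a prior count of 2. Marker scores were compared by exact permutation of the libraries, two-sided. Gene positions, lengths and codon windows come from GENCODE transcripts of GRCm38, matched to the members by gene name, and a comparison of whole proteins was not made. The lane of each library is not given in the sources used here, so lane effects were not tested. The CA1 score covariate, DESeq2 without KO5 and the list of subicular and neocortical markers were chosen after the data were seen.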

Additional observations from a re-analysis of the deposited data

Results flagged for a closer look

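The Gabrd level of KO5 stood apart from the other KO libraries. It was 31.8 CPM, while the other 5 KO libraries lay between 17.7 and 20.1 CPM, so that the gap to the nearest library was 0.831 of the whole range of the group, above Dixon's 95% critical value for 6 samples. Over the 14 groups examined (7 members in each genotype) this was the 1 group with such a library, and chance alone gives about 1 in 20 groups, or 0.7 of 14.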

How the results depend on the processing

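No member passed the threshold in any of 147 member values under other settings (lowest adjusted p 0.276, for Gabra4 in DESeq2 without KO5), and 11 of these had the opposite sign, all for Gabra3 or Gabrb1. With library totals alone, which moved the median of all genes to 0.03, Gabra3 was 0.0004109 and Gabrb1 0.01531. DESeq2 without KO5 gave 0.01196 for Gabrb1. With each library left out, log2 fold changes ran from -0.1428 to 0.03382 for Gabra3, -0.04404 to 0.03646 for Gabrb1, -0.14 to -0.02 for Gabra2, -0.24 to -0.15 for Gabra4, -0.25 to -0.16 for Gabra5, -0.11 to -0.05 for Gabrb2 and 0.09 to 0.29 for Gabrd. Of all genes, 84 were called by DESeq2, 71 by DESeq2 without KO5, 1 with at least 10 reads in every library, 1 with the CA1 score as a covariate, and 2 to 6 with each library left out, against 4. DESeq2 without KO5 called 1 GABA-B gene, and library totals gave the CA1 score a difference of -0.11 (exact permutation p = 0.0455). Per coding length the order of levels had Gabrb2 at place 1, Gabra5 at 2, Gabra2 at 3 and Gabra3 at 4. The cause of these changes was not tested. When the replicate number was a block, 4 genes were called, the same 4 as without it, none of them a member. Gabra5 then had -0.21 (unadjusted p = 0.00778 in edgeR, against 0.0308 without the block, and adjusted p = 0.341). Same-numbered libraries had correlations of -0.08 to 0.09, and none correlated best with its own number. Whether same-numbered pools were prepared together is not given in the sources used here, and these correlations cannot show it. Gabrb1 had the fewest reads of the members in most libraries, and recovery was not simulated for genes under 1 CPM.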
